A study of Macaca mulatta with 4 samples.

Results

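The regions described here are wide stretches of open chromatin on the autosomes of rhesus macaque (Macaca mulatta) morulae in which all 4 DNase-seq libraries of the study had a hotspot. Overlapping or touching hotspots of the 4 lists were merged, and a region was kept when its merged width was at least 5000 bp, each library had at least 1 hotspot in it, and no hotspot in it ranked in the top 1% of scores of its own list. This left 1367 broad shared regions of 222970 merged regions (0.613%), and of 13158 autosomal regions with a hotspot in every library (10.4%). They are set beside the 11589 shared regions under 5000 bp, called compact below. Position, width and score chose the regions, so their number, their width and the presence of all 4 libraries are given as descriptions with no test.

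The libraries come from AG morulae (replicates 1 and 2) and GG morulae (replicates 1 and 2). AG (androgenetic) embryos take their nuclear genome from sperm alone and GG (gynogenetic) embryos take it from the oocyte alone, so that the comparison sets paternal against maternal chromosomes. Per the labels, the DNase I digestion was the same for both kinds, at 37 °C for 5 min with 40 U/ml of enzyme. The labels name a breeding company and a research institute as the source of the embryos. They do not say how many embryos or donors stand behind a library, and donors and the making of the embryos cannot be told apart from parental origin. The labels also do not say that replicates were separate cultures, so p-values here measure the spread between these libraries, which may be technical.

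DNase I cuts DNA where nucleosomes are loose or absent, and a hotspot is a stretch with more cuts than its surroundings. Single promoters and enhancers usually give short hotspots. Wide stretches of sensitive chromatin are known from places where several regulatory elements lie side by side, such as promoters rich in CpG with neighbouring enhancers. By the morula stage the embryo has started to transcribe its own genome. In normal embryos both parental genomes share the nucleus, whereas in AG and GG embryos each is present without the other. Positions refer to rheMac8 and are counted from 1. No genome or annotation of that build was used here, so regions are named by position, without genes or sequence, and the labelled stage was not checked against marker genes.

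The lists held 64730 and 85318 hotspots in AG replicates 1 and 2, against 93171 and 84865 in GG replicates 1 and 2. They hold no read counts, so sequencing depth is unknown, and its part in the length of a list or of a hotspot was not tested. On chromosome Y, 1 and 1 hotspots were listed for AG and 0 and 0 for GG, and nothing is read from so few.

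Broad shared regions were mostly only a little wider than the limit. The median width was 5961 bp, 707 of the 1367 (51.7%) were under 6000 bp, and 38 reached 10000 bp. Together they spanned 8.72 Mb, which is 20.5% of the width of all shared autosomal regions. Wide regions were shared more often than narrow ones by construction, since every added hotspot widens a merged region: 1569 of 1892 autosomal regions of 5000 bp or more (82.9%) were called in all 4 libraries, against 5.25% of 220884 narrower ones. Chromosome X, which the rule leaves out, had 8 regions called in all 4 libraries, and the widest of them was 944 bp. Nearly all of the 222970 merged regions were autosomal, so few regions were listed on chromosome X in any library. Nothing is read from these 8 about sharing or width there.

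Just inside the width limit lay chromosome 5 at 85361800 to 85366799 (5000 bp) and chromosome 10 at 78316542 to 78321543 (5002 bp). Just outside lay chromosome 1 at 162089850 to 162094848 (4999 bp) and chromosome 2 at 30417627 to 30422624 (4998 bp). The score rule removed 202 of the 1569 wide regions. The widest of those removed were chromosome 13 at 27499577 to 27513484 (13908 bp) and chromosome 15 at 43015644 to 43028836 (13193 bp). The authors' score at the limit was 16.1 for the best hotspot kept and 16.2 for the lowest in the top 1% in AG replicate 1, and 17.2 and 17.3 in AG replicate 2. In GG replicate 1 both values rounded to 18.9, and in GG replicate 2 the best hotspot kept also scored 18.9.

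Most broad shared regions were built from overlapping hotspots of different libraries, none of which spanned the whole region. In 135 (9.88%) 1 hotspot of 1 library ran from end to end. A hotspot of 5000 bp or more in some library lay in 607 (44.4%), and 760 held none in any library. Within a library, 46.2% (GG replicate 2) to 51.3% (AG replicate 2) of the regions held a single hotspot. The number of hotspots summed over the 4 libraries ranged from 4 to 16 with a median of 6, and 116 regions (8.49%) had exactly 1 hotspot in each library. The mean number per region was 1.65 and 1.59 in the AG libraries, against 1.61 and 1.69 in the GG libraries. The groups overlapped, and the difference was smaller than the spread between replicates.

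The hotspots within these regions were longer in GG. Their length makes up the merged width that chose the regions, so the values are a description with no test. The mean length of the longest hotspot per region was 2591 and 2428 bp in the AG libraries, against 3562 and 3418 bp in the GG libraries. A hotspot of 5000 bp or more lay in 122 and 76 of the regions in AG, against 288 and 252 in GG. Both GG libraries were thus above both AG libraries in each measure. The whole lists showed the same order at the long end: 0.256 and 0.141% of all hotspots reached 5000 bp in AG, against 0.456 and 0.444% in GG. Median autosomal hotspot lengths were close, at 904 and 891 bp in AG and 904 and 920 bp in GG.

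**Figure D1:**
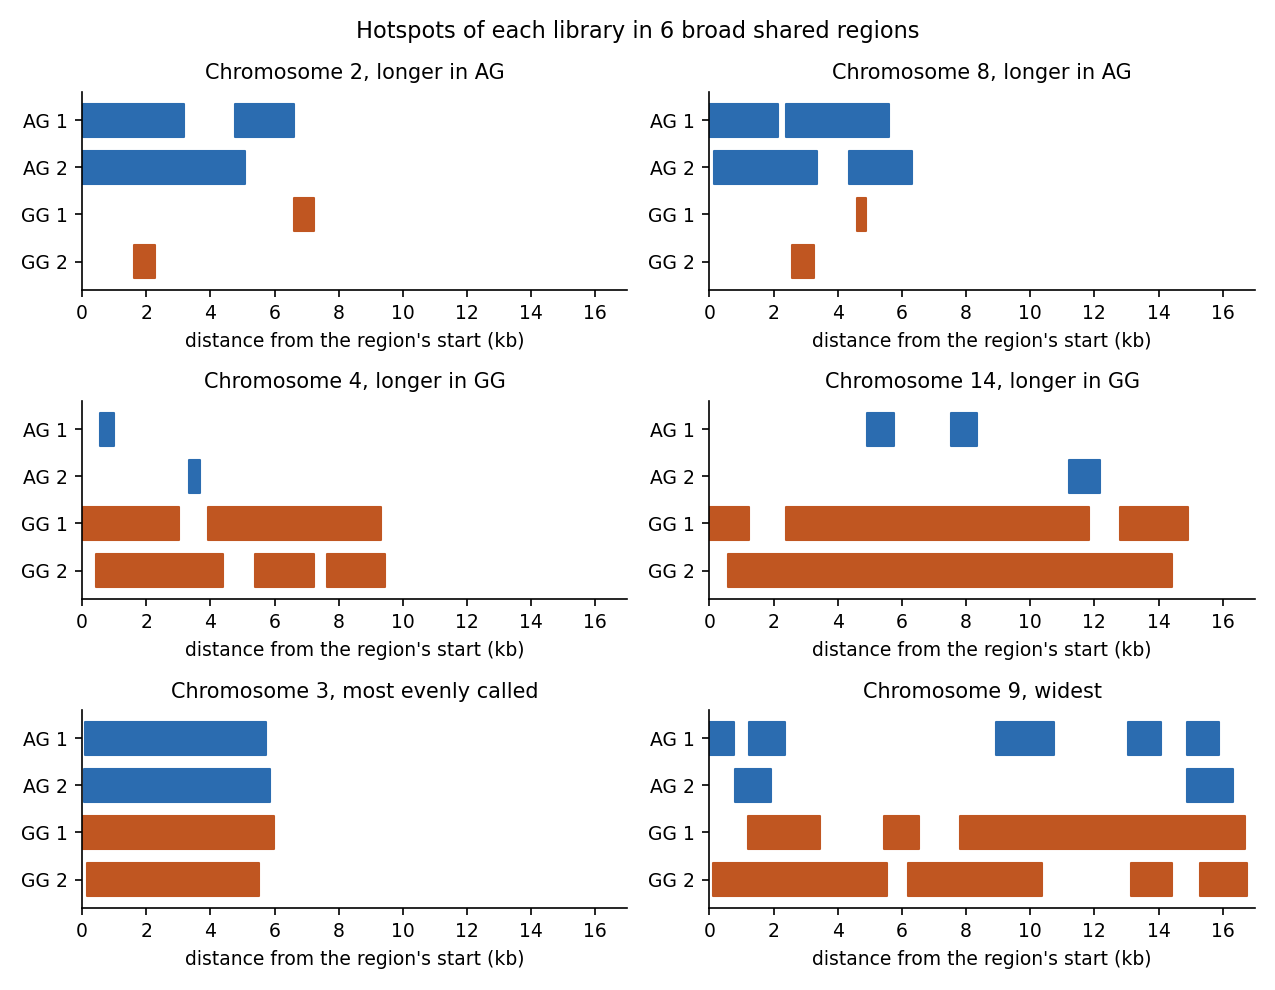
Hotspots of each library in 6 broad shared regions, with distance from the region's start in kb on the x axis and 1 row per library (AG blue, GG orange). The top pair was covered mostly by AG libraries, the middle pair mostly by GG libraries, the chromosome 3 region almost evenly by all 4, and the chromosome 9 region, 16772 bp wide, by 2 to 5 hotspots of each library.

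The part of each region's width that a library called as hotspot was larger in GG. AG replicates 1 and 2 called 52.4 and 48.8% of the width on average, against 67.9 and 66.9% in GG replicates 1 and 2. The groups did not overlap, with means of 50.6 ± 2.49% in AG and 67.4 ± 0.737% in GG (SD, n = 2 libraries each), a difference of -16.8 percentage points (AG minus GG). This too is given with no test, since merged width chose the regions. In bp, an average region held 3338 and 3104 called bp in AG, against 4354 and 4284 bp in GG. The same measure in compact shared regions was 60.7 and 58.8% in AG, against 69.8 and 67.8% in GG. The ratio of called bp in a broad over a compact region was 2.02 and 1.96 in AG, against 2.24 and 2.28 in GG, so both GG ratios lay above both AG ratios, between classes that the merged width itself separates.

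**Figure D2:**
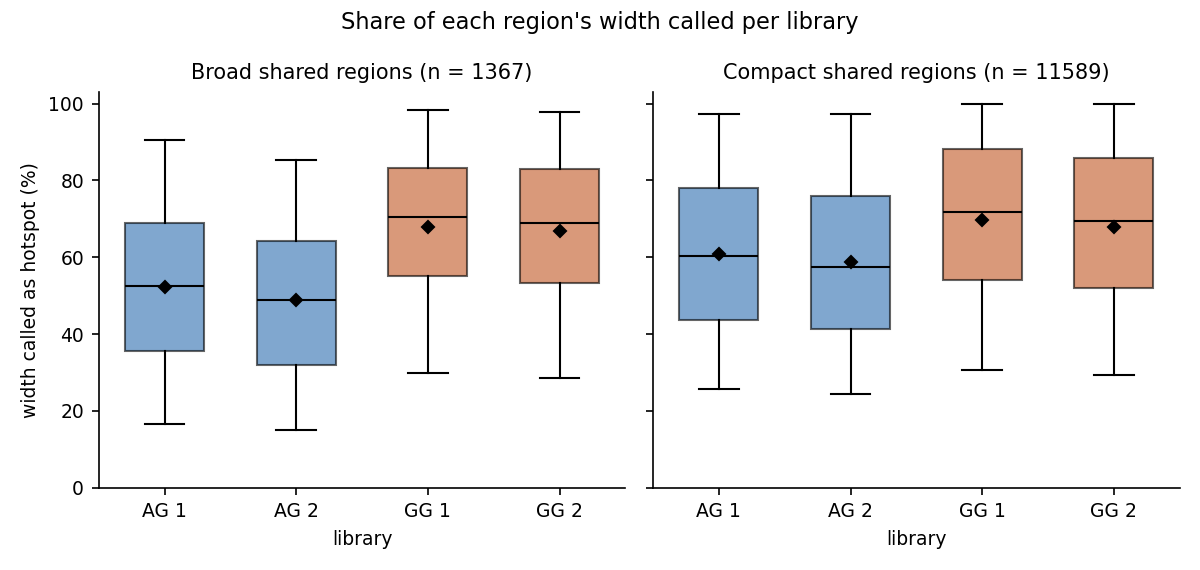
Percent of a region's width called as hotspot in each library, for the 1367 broad and the 11589 compact shared regions (boxes give the middle 50%, lines the median, whiskers the 5th to 95th percentile and diamonds the mean). In broad regions the AG means lie at 52.4 and 48.8% and the GG means at 67.9 and 66.9%.

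The rule itself bears on this gap. A region reaches 5000 bp more easily through a library with longer hotspots, so regions picked by merged width lean to such libraries. GG hotspots set 1719 of the 2734 region edges (62.9%) and AG hotspots set 1014 (37.1%). To measure each group in regions it had no part in choosing, the lists of 1 group were merged alone, and autosomal regions of 5000 bp or more with a hotspot in both libraries were taken with no score limit. The AG lists gave 408 such regions, in which GG replicates 1 and 2 called 54.7 and 54.3% of the width on average. The GG lists gave 1079, in which AG replicates 1 and 2 called 40.8 and 37.2%. Some GG hotspot was present in 93.4 and 92.9% of the AG-chosen regions, and some AG hotspot in 87.2 and 85.4% of the GG-chosen ones. With every list shortened by score to equal covered length, the AG lists gave 401 regions and the GG lists 1004, and the shares called by the other group were 51.9 and 52.3% for GG and 42.1 and 36.5% for AG.

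Positions called in every library made up a minor part of a broad region. The share of a region's width called in all 4 libraries had a median of 18.7% (75th percentile 29.6%), and 57 regions passed 50%. In 177 regions (12.9% of the 1367) no single position was called in all 4 libraries, so the libraries shared the region but not a position. Such a position was present in 87.1% of broad and 88.3% of compact regions, so its absence was not particular to broad ones. The median share called in all 4 was 30.7% in compact shared regions. Of all positions in broad regions, 20.5% were called in all 4 libraries, 23.1% in 3, 28.5% in 2 and 27.8% in 1.

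Where broad regions were called in 2 libraries, the pair was most often the GG pair. Positions called in both AG and neither GG library made up 3.52% of the width, and positions called in both GG and neither AG library 12.3%. Pairs made of 1 AG and 1 GG library held 2.82 to 3.58% each. In compact regions the AG pair held 3.23% and the GG pair 7.70%. Counted by region, each AG library on its own called over 50% of the width, and neither GG library did, in 51 broad regions. The reverse held in 319. Each of the 4 libraries on its own, at positions that need not be shared, called over 50% of the width in 261. This count was not made in compact regions. The lists covered 67.8 and 84.3 Mb of the autosomes in AG, against 102 and 93.1 Mb in GG. GG hotspots also set more edges of the merged regions than AG hotspots did, so nothing is read from these counts about broad regions.

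**Figure D3:**
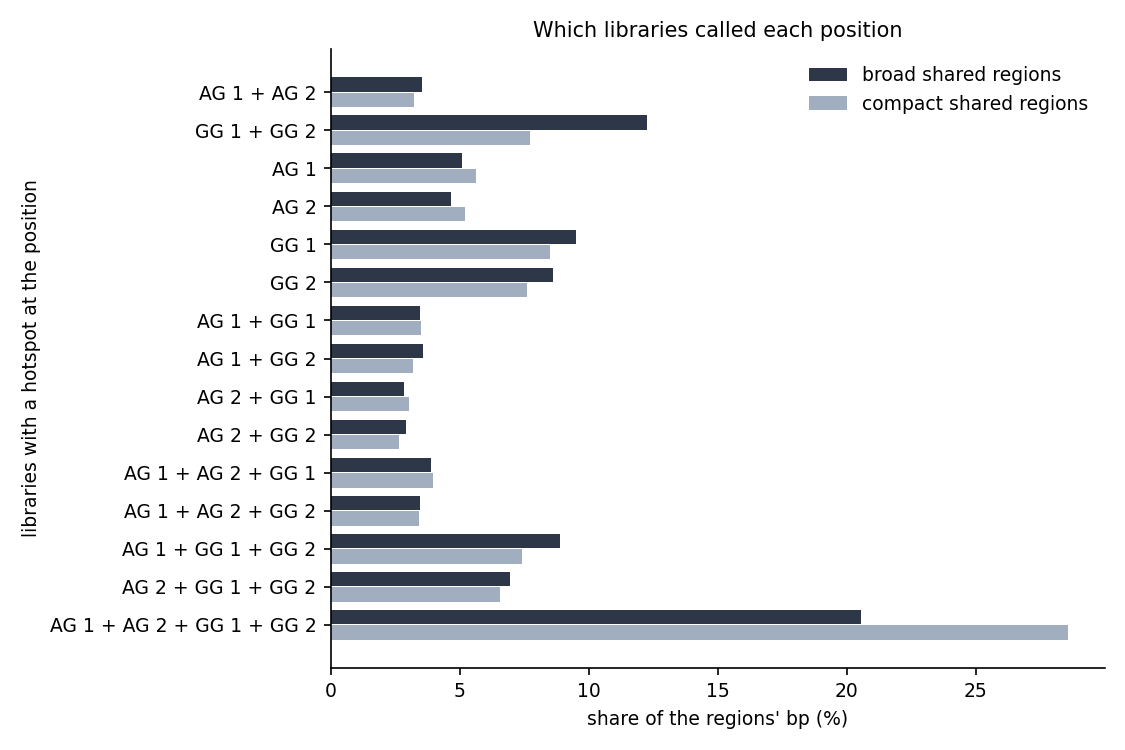
Share of positions, in percent of the summed width, by the set of libraries with a hotspot at the position, for broad (dark) and compact (light) shared regions. In broad regions positions called by both GG and no AG library reach 12.3%, against 3.52% for both AG and no GG library.

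The best hotspot of a broad region mostly scored well above the middle of its list, without being the very top, which the rule removed. The best hotspot of a region ranked at a median percentile of 87.4 and 89.4 in AG replicates 1 and 2, and of 91.7 and 91.2 in GG replicates 1 and 2. Percentiles are ranks within a list and are not compared between lists. In compact regions the medians were 82.5 and 85.1 in AG and 88.0 and 87.2 in GG, within the same lists, although 1055 compact regions held a hotspot of the top 1%. A best rank is the highest over all hotspots of a library in the region. It can rise with their number, which was not matched between broad and compact regions. All 4 libraries had a hotspot in their top 10% in 224 broad regions (16.4%), and at least 1 library did in 83.8%. In 244 regions the best hotspot of some library ranked in the lower 50% of its list. This was the case for 113 and 104 regions in AG and for 32 and 39 in GG.

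The region with the highest share called in all 4 libraries was chromosome 3 at 40940365 to 40946334, with 1 hotspot per library. The libraries called 5658 and 5825 bp in AG, against 5970 and 5367 bp in GG, and 89.9% of its 5970 bp was called in all 4. Next were chromosome 19 at 18395334 to 18400914, with 4737 and 5517 bp in AG against 4952 and 5391 bp in GG, and chromosome 4 at 31538984 to 31545114, with 5345 and 4826 bp in AG against 5046 and 6131 bp in GG. In all 3 regions the called bp of the groups overlapped before scaling. After scaling, both AG libraries were above both GG libraries in the regions on chromosomes 3 and 19, by log2 differences of 0.29 (SE 0.33) and 0.25 (SE 0.34).

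The 10 widest regions were more uneven. The widest was chromosome 9 at 74404656 to 74421427, 16772 bp, with 5719 and 2563 bp called in AG against 12224 and 12350 bp in GG. Chromosome 9 at 69615659 to 69630579 had 10069 and 9096 bp in AG against 12403 and 12676 bp in GG, with 16 hotspots over the 4 libraries, the highest number reached, and 6319 bp called in all 4, the most of any broad region. Chromosome 7 at 169053207 to 169068037 went the other way, with 10619 and 10740 bp in AG against 8574 and 10503 bp in GG. In chromosome 12 at 59450004 to 59463696 the AG libraries themselves differed, at 2242 and 8036 bp, against 9286 and 7567 bp in GG. The other 6 were chromosome 14 at 108425010, chromosome 12 at 48793656, chromosome 1 at 188895960 and at 25227747, chromosome 7 at 67900530 (16 hotspots as well) and chromosome 3 at 133285154. Each of these 6 had more called bp in GG than in AG on average. Of the 10, 7 had both GG libraries above both AG libraries in scaled called bp (over all shared regions tested, 20.5%), 1 had both AG above both GG (24.6%), and in 2 the groups overlapped. The 10 were picked by merged width, which is built from the called bp compared here, so nothing is read from these counts.

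Each region was then tested between AG and GG. Called bp plus an offset of 100 bp was scaled to its mean over all shared autosomal regions in that library, so that a value is relative to the library's own shared regions, and log2 values were fitted with limma over all 13158. By limma, 0 of 1367 broad regions passed a Benjamini-Hochberg adjusted p of 0.05, as did 0% of all regions tested, and the lowest adjusted p was 0.216 (n = 2 libraries per group). At an unadjusted p under 0.05 there were 278 broad regions (20.3%), against 11.7% of all regions tested. Of these, 79 were higher in AG, against a background of 5.88%, and 199 were higher in GG, against a background of 5.77%. Called bp makes up the merged width that chose the broad regions, whereas the regions tested were not chosen by width. These shares are thus descriptions, and nothing is read from the excess.

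The median log2 difference was -0.21 over broad regions (AG minus GG), 0.05 over compact ones and 0.03 over all regions tested. Both AG libraries lay above both GG libraries in 245 broad regions (17.9%), where the background over all regions tested was 24.6%. Both GG libraries lay above both AG libraries in 464 (33.9%), with a background of 20.5%. Together these were 709 broad regions (51.9%), with a background of 45.1%. The log2 difference was above 1 in 87 broad regions (background over all regions tested 5.94%) and below -1 in 220 (background 5.54%). Without any scaling both AG were above both GG in 138 (10.1%; background 12.5%) and both GG above both AG in 666 (48.7%; background 34.6%). Scaled to covered bp, AG was above in 269 (19.7%) and GG in 374 (27.4%). In the fit on regions called in at least 2 libraries AG was above in 352 (25.7%) and GG in 346 (25.3%). The share over all regions tested was not computed in these settings, so these counts are not read against a background. Within broad regions the counts thus depended on the scaling and on the regions fitted. Since called bp makes up the merged width that chose the regions, these counts describe the chosen regions. They do not measure a group difference independent of the choice.

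**Figure D4:**
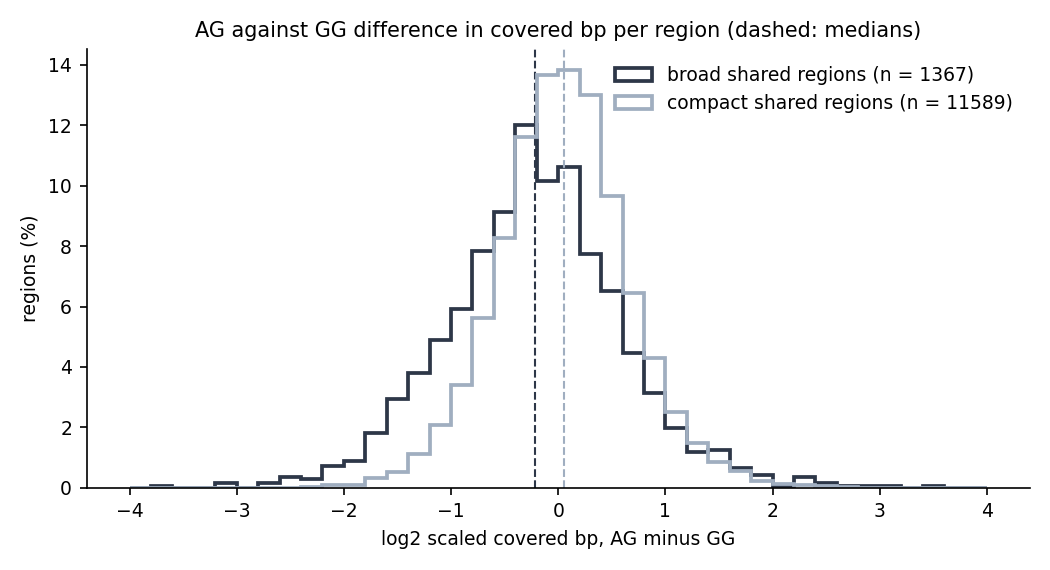
Distribution of the log2 difference in scaled called bp, AG minus GG, over broad (dark) and compact (light) shared regions, in percent of each class per bin of 0.2. The dashed medians are -0.21 for broad and 0.05 for compact regions, and the broad distribution has a longer left side, where GG is higher.

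Among regions with non-overlapping groups, the smallest limma p on the GG side belonged to chromosome 4 at 144809106 to 144818551. AG replicates 1 and 2 called 440 and 334 bp there, against 8416 and 7597 bp in GG replicates 1 and 2. Each AG library had a single short hotspot, and these did not overlap. The scaled log2 difference was -3.80 (SE 0.33, limma adjusted p = 0.216; 0.0142 to 0.609 over the alternatives run).

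Chromosome 1 at 34294913 to 34301058 followed, with 457 and 301 bp in AG against 5626 and 3927 bp in GG (log2 -3.08, SE 0.37). Chromosome 14 at 108425010 to 108439937 had 1670 and 970 bp in AG against 12846 and 13845 bp in GG (log2 -3.02, SE 0.38), and a single GG hotspot of 13845 bp covered 92.7% of it. No position of that region was called in all 4 libraries. The last 2 on this side were chromosome 20 at 70381347 to 70390810 (901 and 932 bp in AG against 8454 and 6214 bp in GG) and chromosome 11 at 95931890 to 95937749 (688 and 457 bp in AG against 4181 and 5190 bp in GG).

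On the AG side chromosome 2 at 163246770 to 163253987 came first, with 4979 and 5066 bp in AG against 617 and 635 bp in GG (log2 3.08, SE 0.33, limma adjusted p = 0.225). Chromosome 8 at 40410742 to 40417041 had 5365 and 5142 bp in AG against 275 and 703 bp in GG (log2 3.55, SE 0.45). In both of these regions the GG hotspots were short and lay apart from each other, so no position was called in all 4 libraries.

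Chromosome 16 at 16060722 to 16066467 had 3309 and 5341 bp in AG against 716 and 490 bp in GG, and chromosome 4 at 35537316 to 35542582 had 4273 and 4662 bp in AG against 1073 and 682 bp in GG. Chromosome 3 at 101566566 to 101573015 had 3837 and 5632 bp in AG against 972 and 841 bp in GG. Other than in the regions on chromosomes 4 and 2 with the smallest p of each direction, the adjusted p of these 10 regions was 0.268. None passed 0.05 in this fit, whereas a fit over all 55847 autosomal regions called in at least 2 libraries, in which 28.4% of regions passed, called all 10. That wider fit takes in regions without a hotspot in some libraries, which the rule keeps out of the broad set. Its share of regions passing is therefore no background for broad regions. The 10 were chosen by their p, so their differences are descriptions of the 4 lists.

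Regions without a common position can also be wide. After the chromosome 14 region, the widest of the 177 were chromosome 4 at 87466071 to 87478998, with 3674 and 462 bp in AG against 10592 and 10784 bp in GG, and chromosome 11 at 47751429 to 47761148, with 4447 and 5257 bp in AG against 3444 and 2358 bp in GG.

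Across the 1367 regions the scaled log2 called bp correlated within groups, with Pearson r of 0.41 for the AG pair and 0.49 for the GG pair. Between an AG and a GG library r was 0.01 to 0.10. Over all 13158 regions tested the values were 0.51 for the AG pair, 0.66 for the GG pair and 0.42 to 0.46 between groups. The points share the library, and the width limit narrows the range of called bp, so these correlations are descriptions across regions. Called bp of all libraries also makes up the merged width that chose the regions. The choice thus bears on the low values between groups, and nothing is read from them about AG and GG.

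Broad shared regions occurred on every autosome, at 0.511 per Mb over all. Chromosome 16 had the most per Mb (1.09, 84 regions), followed by chromosome 19 (0.932, 50 regions) and chromosome 10 (0.711, 66 regions). Chromosome 17 had the fewest (0.240, 23 regions), with chromosome 18 next (0.271, 19 regions) and chromosome 5 after it (0.326, 62 regions). Chromosomes 16 and 19 are the counterparts of human chromosomes 17 and 19, which are rich in genes.

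Chromosome 19 was dense in shared regions of all widths, but few of them were broad. It held 3.66% of broad and 8.05% of compact shared regions. Of its 1004 shared regions 4.98% were broad, and of the 484 on chromosome 20 5.99% were, the lowest shares of the 20 autosomes. The score limit bore on this, as it removed 21 of 71 wide regions on chromosome 19 (29.6%), against 12.9% over all autosomes. With those regions kept, 7.07% of the shared regions on chromosome 19 and 7.02% on chromosome 20 were wide, still the lowest shares but in the other order. Chromosome 19 then held 4.53% of wide regions and had the most per Mb (1.32), above chromosome 16 (1.27). Chromosome 12 had the highest share, 14.5% of 421, and chromosome 4 the second highest, 12.9% of 811. With each library left out in turn, chromosome 19 held at most 4.77% of broad regions. It held none of the 38 regions of at least 10000 bp.

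By chromosome the median log2 difference (AG minus GG) of broad regions lay below that of compact regions on 18 of 20 autosomes, with chromosomes 18 and 19 as the exceptions. It was below 0 on 18 autosomes and above 0 on chromosome 19 (0.25, n = 50 regions) and chromosome 20 (0.08, n = 29). Compact regions also had medians above 0 on chromosomes 19 (0.20) and 20 (0.16), so this sign was not particular to broad regions there. The lowest medians of broad regions were -0.47 on chromosome 12 (n = 61), -0.44 on chromosome 13 (n = 47) and -0.40 on chromosome 17 (n = 23). On chromosome 19 both AG libraries were above both GG libraries in 21 of 50 regions and the reverse held in 7. On chromosome 14 the numbers were 6 and 28 of 63. Beside these counts stand shares of 17.9% with AG above and 33.9% with GG above over all broad regions, and of 24.6 and 20.5% over all regions tested. Another scaling shifts every region by the same amount (the median over all regions tested was 0.03 here and -0.24 unscaled), so the sign of a chromosome's median depends on it, while the gap between broad and compact regions does not. Regions of a chromosome share their libraries and are not replicates, so the order of chromosomes carries no test.

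**Figure D5:**
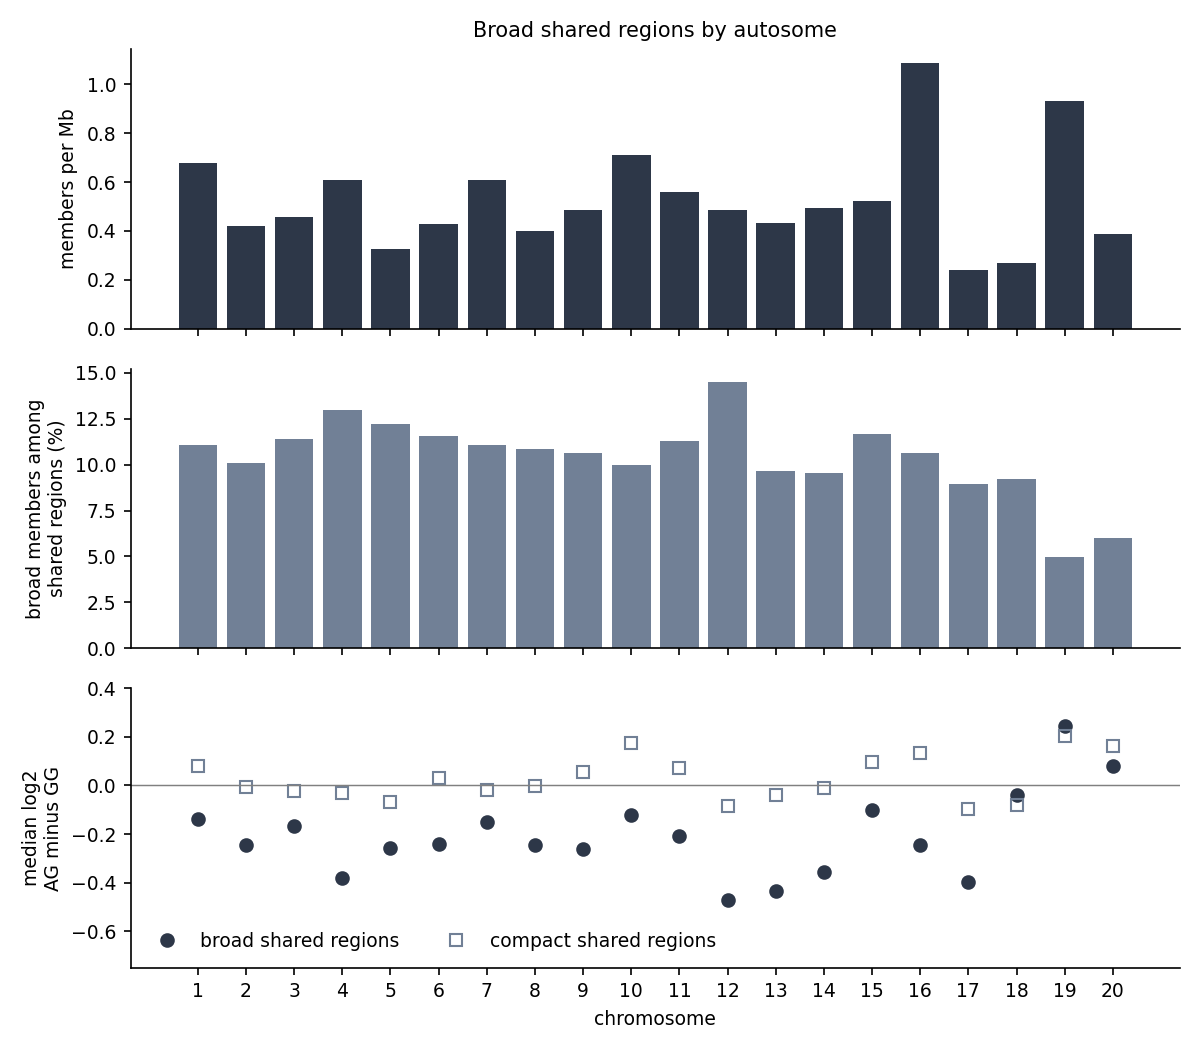
Broad shared regions per Mb (top), their share among shared regions in percent (middle) and the median log2 difference in scaled called bp, AG minus GG (bottom; broad regions filled, compact regions open), by autosome. Chromosome 16 has 1.09 per Mb, chromosomes 19 and 20 have the lowest shares that are broad (4.98 and 5.99%), and with this scaling the median of broad regions is above 0 on chromosomes 19 and 20 and below 0 on the other 18.

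Most broad regions stood apart from each other. Another broad region lay within 100 kb of 351 (25.7%), and the median gap to the nearest was 294 kb. Compact regions, which are more numerous, had another compact one within 100 kb in 78.4% of cases, so these shares are not on the same footing. Measured to the nearest shared region of either class, the median gap was 26.4 kb for broad and 27.7 kb for compact regions. The largest groups, with each region within 100 kb of the next, had 4 regions, and there were 3 of them. They spanned chromosome 16 from 7667470 to 7851207, chromosome 6 from 166715928 to 166934745 and chromosome 7 from 111684402 to 111895149.

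Regions of such a group did not all lean the same way. On chromosome 16 the region at 7740184 had 4932 and 5876 bp in AG against 5304 and 3352 bp in GG, and both AG libraries were above both GG libraries after scaling. The region at 7846185 had 2229 and 2253 bp in AG against 4090 and 4361 bp in GG, with both GG libraries above. On chromosome 6 the region at 166715928 had 1807 and 1799 bp in AG against 4956 and 5304 bp in GG, while that at 166829169 had 4087 and 4510 bp in AG against 7686 and 3687 bp in GG, so that the groups overlapped. On chromosome 7, 2 of the 4 regions had both GG libraries above both AG libraries (those at 111684402 and 111888803), and in the other 2 the groups overlapped.

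The surroundings of broad regions were rich in hotspots, as were those of compact regions. The rule did not use the flanks themselves. Within 50 kb on either side, outside the region itself, the libraries called 5943 and 6304 bp on average in AG, against 8252 and 7620 bp in GG. Relative to the autosomal mean of each library the mean density was 2.17 ± 0.243 times in AG, against 2.18 ± 0.0187 times in GG (SD, n = 2 libraries each), and the groups overlapped (two-sided exact permutation p = 1, where 2 against 2 libraries cannot go below 0.333). Around compact regions the density was 2.28 and 2.01 times in AG, against 1.96 and 1.96 times in GG. Flanks of broad regions over flanks of compact ones gave ratios of 1.03 and 0.997 in AG, against 1.10 and 1.12 in GG, and here the groups did not overlap (exact p = 0.333). The flanks lie beside regions that merged width chose, and their differences were weakly related to those of the regions. The ratio is thus not independent of the choice.

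The difference within a region and that in its flanks were weakly related across the 1367 regions (Pearson r = 0.24, Spearman rho = 0.22, as a description). The median flank log2 difference (AG minus GG, offset of 1000 bp) was 0.19 around the 245 regions with both AG above and -0.12 around the 464 with both GG above. Over all broad regions it was 0.05.

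The share of a library's autosomal called bp that lay in broad regions was 6.73 and 5.04% in AG, against 5.83 and 6.29% in GG. The groups overlapped, with means of 5.88 ± 1.20% and 6.06 ± 0.324% (SD, n = 2 libraries each). The set depended on the libraries used. Without AG replicate 1 or 2 there were 1130 or 1181 broad regions called in the 3 libraries left, of which 76.3% and 77.2% of the 1367 overlapped one. Without GG replicate 1 or 2 there were 839 or 881, and 57.4% and 60.5% of the 1367 overlapped one.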

How the data were processed

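Each of the 4 libraries has 1 list of hotspots (chromosome, start, end and score), deposited by the authors at a false discovery rate of 0.01 per the file names, and not pooled. The score is the authors' own value on an unstated scale, and ranked hotspots within a list. The submitters' processing notes name deepTools 3.3.1, SAMtools, Bowtie2 and Trim Galore, and the build rheMac8. The hotspot caller is not given in the sources used here. From these lists, merged regions, called bp and overlaps were computed. Library values in flanks were compared by exact permutation; called length, hotspot number and share of called bp in broad regions, planned with the same test, are given without p since merged width chose the regions. Regions were tested by limma (trend and robust off, no replicate block). Named regions were, by rule, the 10 widest, 5 per direction by p, 3 each by bp and by highest and lowest share called in all 4 (ties by width), 3 by hotspot number, those at the limits and the largest groups. Members, rule and tests were chosen with earlier results of these data known. The compact class was not filtered by score. Merging and limma steps were tested on simulated data and against bedtools. Chromosome length was the end of the last hotspot in any list. Replicate numbers are shared between groups, but differences between replicates did not correlate (AG 1 minus AG 2 with GG 1 minus GG 2, r = -0.02 over regions tested), and the labels tie no samples together. Fits used limma 3.58.1 in R 4.3.3, and other steps pandas 2.3.3, scipy 1.17.1, numpy 2.4.6 and matplotlib 3.10.9 in Python 3.11.15. Alternatives were leaving out each replicate, other lists, widths, merging, offsets and scalings, and a replicate block.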

Additional observations from a re-analysis of the deposited data

How the results depend on the processing

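Lists shortened to equal covered length were added after the data were seen. The smaller share of width called in AG kept its direction in the alternatives run (-24.2 to -12.9 percentage points). Each alternative also chose its regions by merged width, so the kept direction is not independent of that choice. The number of broad regions was 839 to 1181 with a library left out and 38 at 10000 bp. By limma 0 passed in every alternative but the fit on regions called in at least 2 libraries, where 37 of 1367 did, against a background of 28.4% of 55847 regions. That fit takes in regions without a hotspot in some libraries, which the rule keeps out of the broad set. The count and its background are thus not on the same footing, and nothing is read from them. By limma the replicate block gave 0, with a lowest adjusted p of 0.347. The median log2 difference was -0.26 to -0.16 with a library left out, -0.18 in the higher-scoring 50%, -0.19 in lists of equal number, -0.31 at 10000 bp, -0.19 with an offset of 1000 bp, -0.12 with median scaling, -0.11 scaled to covered bp, -0.48 unscaled, -0.0154 in the fit on at least 2 libraries and -0.16 at equal covered length. The median over all regions tested was 0.12, 0.13 and -0.24 under those 3 scalings, and the gap of -0.24 between it and the broad regions was the same by construction. Non-overlapping groups with AG higher made up 26.5 to 31.7% with a library left out, where fewer libraries must separate, and 10.1% unscaled (background 12.5%). Those with GG higher made up 43.1 to 52.6% with a library left out, and 55.3% at 10000 bp (background over all regions tested 20.5%). With a library left out the share over all regions tested was not computed, so nothing is read from those shares. Merged width is built from the called bp compared here, so nothing is read from the share at 10000 bp either. The AG minus GG difference in the share of called bp was -1.12 to 0.301 percentage points with a library left out and 0.163 in the higher-scoring 50%. That in hotspots per region was -0.0341 to 0.158 with a library left out, 0.0324 in lists of equal number, 0.118 at 10000 bp and 0.110 at equal covered length. Neither had a settled direction; the cause was not tested. The median share called in all libraries was 27.0 to 29.7% when only 3 had to agree. At 10000 bp, 0% lay on chromosome 19 and 0% had a neighbour within 100 kb. The neighbour share was 17.5 to 23.4% with a library left out, 22.1% in the higher-scoring 50%, 28.6% when merging within 150 bp, 29.3% with top-scoring regions kept and 23.1% at equal covered length. The 10 regions named for their difference kept their direction wherever they could be matched. Depth is unknown, so a hotspot missing from a list is not shown to be closed chromatin.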
